A study of Mus musculus with 66 samples.

Results

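Newly made RNA was compared between 8 h and 4 h after activation of MycER in mouse fibroblasts. The comparison rests on 6 of the 66 libraries of the series, chosen by their labels: 3 libraries of labelled RNA at 8 h and 3 at 4 h, with exon and intron values for each. The cells were 3T9 fibroblasts, a line made from mouse embryos of embryonic day 13.5 with floxed alleles of c-myc (c-mycflox/flox), infected in vitro with a retroviral pBabe bleomycin construct for MycER. MycER joins Myc to an oestrogen receptor domain that 4-hydroxytamoxifen (OHT) binds, so that the drug switches the fusion on. Both groups carried the floxed alleles and MycER, were grown in 10% serum and had received 400 nM OHT. The labels give no difference between the groups other than the hours of OHT. For the last 10 min the cells were given 300 µM 4-thiouridine (4sU), a uridine analog that enters RNA as it is made, and the labelled RNA was then isolated. The series also holds 33 libraries of total RNA, of which the 6 at 4 h and 8 h are set beside the labelled ones. It has no time course without OHT, so the effect of further hours in culture cannot be told apart from that of further hours of active Myc.

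Myc is a transcription factor that pairs with Max, binds E-box sequences and is best known for raising genes of cell growth, among them those of ribosome production, nucleotide synthesis and the mitochondrial ribosome. In fibroblasts it also lowers genes of adhesion, the actin cytoskeleton and the extracellular matrix. Cell cycle genes form successive waves: D-type cyclins act in G1, cyclin E and the E2F factors at entry into S phase, and the cyclin B, spindle and kinetochore genes peak towards mitosis under the control of E2F, B-MYB, FOXM1 and the DREAM complex. Exon values of 10 min labelled RNA report the synthesis of a transcript together with its first processing, intron values report RNA that is not yet spliced, and total RNA reports what has accumulated.

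Values below are deposited values after scaling of each library to the typical gene. The deposited sums of the 6 libraries lay between 12390000 and 14120000 for exons and between 31560000 and 35630000 for introns, and true read depth is unknown because the deposited values had been rescaled. Since the labels describe no spike-in, every change is relative to the typical gene and says nothing of RNA output per cell. Replicate 3 at 8 h was somewhat farther from the 4 h libraries than the other 8 h libraries were: the SD of its log2 exon ratios to them was 0.21 to 0.25, against 0.168 to 0.219 for replicates 1 and 2 at 8 h. Introns took 69.1% of its labelled sum, the lowest of all 33 labelled libraries. Many of the counts and adjusted p below are therefore also given without it, though not all of them. Where they are not, how far they rest on it is not shown. Of 14 fibroblast markers 10 were measured, and their summed exon value was 93559 to 104038 at 4 h and 77986 to 91631 at 8 h. None of 12 epithelial markers was among the measured genes, the 2 measured of 9 endothelial markers summed to at most 68.5, the 4 of 12 immune markers to at most 372.2 and the 1 of 10 muscle markers to at most 32.7. The 4 measured of 10 neural markers summed to between 9212 and 11252, most of it from Nes (nestin), an intermediate filament gene also expressed by cultured fibroblasts, at a mean of 10343 at 4 h and 8787 at 8 h. Whether replicates were separate cultures is not in the labels, and the p-values therefore cover the spread among the libraries, possibly a technical one.

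In labelled exons more genes passed the test downward than upward between 4 h and 8 h. Of 11488 genes tested, 179 fell (1.56%) and 56 rose (0.487%), by limma with Benjamini-Hochberg adjustment and a threshold of 0.05. The changes were small: the median was -0.43 on the log2 scale for the genes that fell, or 1.35-fold, and 0.33 for those that rose, or 1.26-fold. At least a doubling or a halving was reached by 6 of the 179 and by 0 of the 56. In 171 of the 179 and 55 of the 56, the 3 libraries of a time did not overlap with those of the other time. Over all genes tested 8.86% had all 3 libraries at 8 h below those at 4 h and 8.28% had all 3 above. The calls were made from these same libraries, so the lack of overlap is no separate support for them. Without replicate 3 at 8 h, 69 genes fell and 5 rose, and with the replicate number as a block 259 fell and 89 rose. Leaving out replicate 1, 2 or 3 at 4 h gave 75, 119 and 99 falls and 21, 16 and 23 rises, and leaving out replicate 1 at 8 h gave 35 rises. From the deposited RPKM values, without further scaling, 46 fell and 34 rose.

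**Figure D1:**
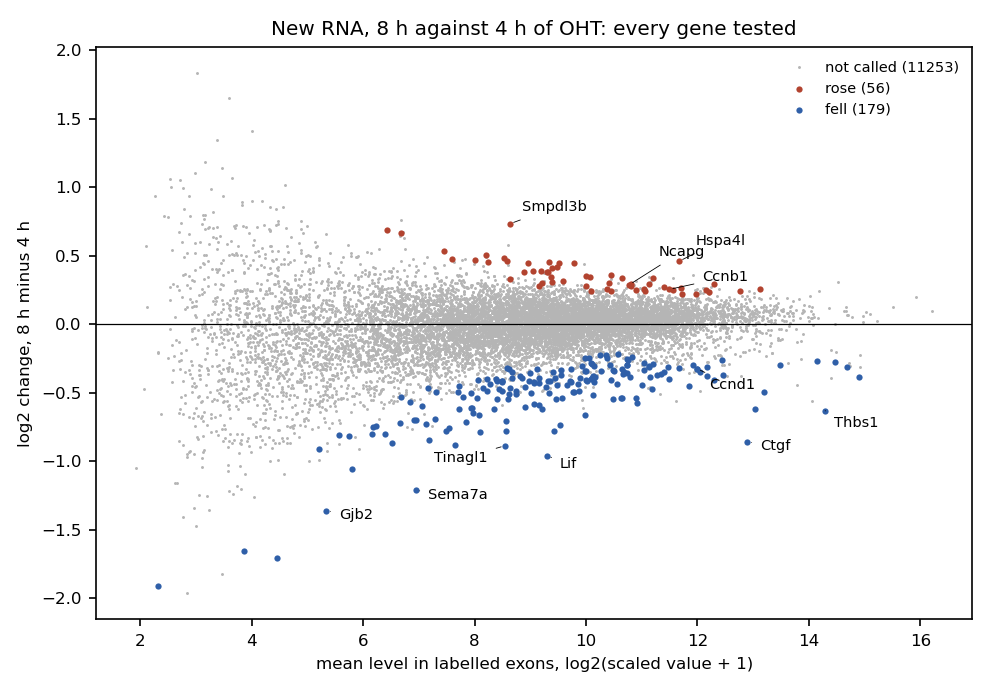
Log2 change from 4 h to 8 h in labelled exons (vertical axis) against the mean level of the 6 libraries as log2(scaled value + 1) (horizontal axis), 1 point per gene tested. The 179 genes that fell (blue) reach further from 0 than the 56 that rose (red), and most called genes lie within 0.5 of 0: 115 of those that fell and 51 of those that rose.

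The calls differed in how firmly they stood. Only 31 of the 235 passed the test under every one of the 13 alternative settings tried, 28 of them falls and 3 of them rises. The rises were Smpdl3b, Poc5 and Ruvbl1. The falls included Lif and Ccl2, which encode secreted signalling proteins, Tgfbr2 and Smad3, a receptor and a transducer of TGF-beta signalling, the integrin gene Itga3, the collagen gene Col5a1, the matrix gene Tinagl1 and the growth factor gene Pdgfb. This group was formed after the values were seen.

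Cell cycle genes moved little, and 4 of the 5 that rose act in mitosis. Of 246 measured genes in 9 cell cycle lists, 5 rose (Ccnb1, Hmmr, Kif20a, Ncapg and Brca1), and 1 fell (Ccnd1), where 0.487% and 1.56% of all genes tested did so. A change above 0 was seen in 195 of the 246, or 79.3%, with a median of 0.08 on the log2 scale, beside 50.6% and a median of 0 over all genes tested. All 3 libraries at 8 h lay above all 3 at 4 h in 48 of the 246 and below them in 6, beside 8.28% and 8.86% of all genes tested. Without replicate 3 at 8 h, or without replicate 2 at 4 h, none of the 246 passed the test upward, while the median without replicate 3 at 8 h was 0.07, with 187 genes above 0. Leaving out replicate 1 at 8 h left 2 rises, and the fall of Ccnd1 passed without replicate 1 at 8 h but not without any other of the 6 libraries.

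Ccnb1 encodes cyclin B1, the partner of CDK1 that drives entry into mitosis (Entrez 268697, chromosome 13 from 101548605 to 101556525 in mm9). Its labelled exon value was 2668, 2520 and 2662 at 4 h and 3123, 2988 and 3246 at 8 h. Every library at 8 h was above every library at 4 h, and the log2 change was 0.25 ± 0.05 (SE; limma adjusted p = 0.00877). Hmmr encodes a microtubule-binding protein of the mitotic spindle (Entrez 15366, chromosome 11 from 40514890 to 40546939). It read 3136, 2950 and 3026 at 4 h and 3624, 3548 and 3782 at 8 h, again without overlap, with a change of 0.27 ± 0.06 (limma adjusted p = 0.00957). Ncapg, a subunit of the condensin complex that compacts chromosomes (Entrez 54392, chromosome 5 from 46061161 to 46091783), read 1634, 1466 and 1630 at 4 h and 1953, 1913 and 1898 at 8 h. The libraries of the 2 times were apart by more than the spread within either, and the change was 0.29 ± 0.07 (limma adjusted p = 0.0199).

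Kif20a, a kinesin needed for cytokinesis, read 2067, 1774 and 2000 at 4 h and 2331, 2182 and 2391 at 8 h. Its lowest value at 8 h was above its highest at 4 h, with a change of 0.24 ± 0.06 (limma adjusted p = 0.0195). Brca1, which acts in homologous recombination and replication fork protection (Entrez 12189, chromosome 11 from 101350078 to 101413269), read 1373, 1214 and 1255 at 4 h and 1577, 1482 and 1474 at 8 h, with a change of 0.24 ± 0.06 (limma adjusted p = 0.0313). Without replicate 3 at 8 h the changes of Ccnb1, Hmmr, Ncapg, Kif20a and Brca1 were 0.22, 0.24, 0.30, 0.21 and 0.26, and their adjusted p were 0.0716, 0.0739, 0.0642, 0.144 and 0.0739. The sizes thus moved by less than their standard errors, while each call ended. The span of Ncapg overlaps that of Lcorl and the span of Kif20a that of Cdc23, and reads from overlapping genes cannot be told apart without strand.

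**Figure D2:**
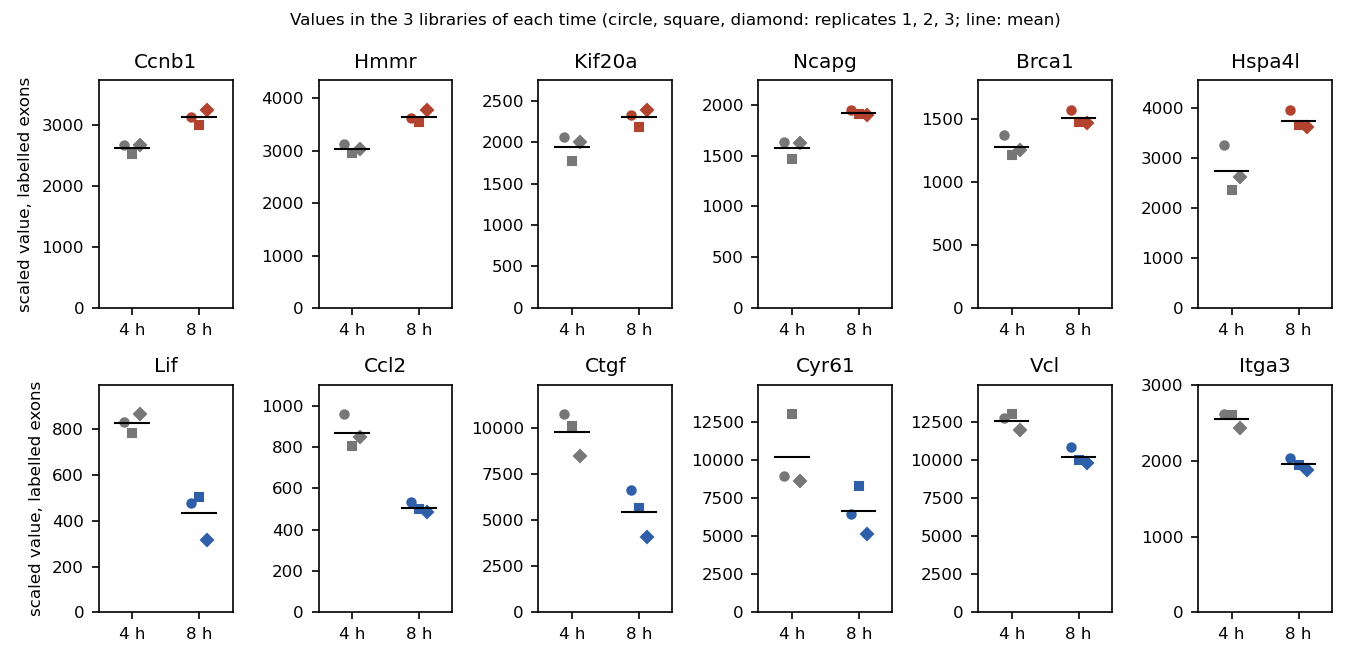
Scaled values in labelled exons (vertical axes, each from 0) of 12 genes in the 3 libraries at 4 h (grey) and the 3 at 8 h (red, rose; blue, fell), with the mean as a line. In the 12 genes shown no library at 8 h lies within the range at 4 h, and replicate 3 at 8 h (diamond) is the lowest of the 6 libraries for each of the 6 genes that fell.

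The promoters of Ncapg and Hmmr each hold a TTTGAA hexamer, the core of the CHR element through which the DREAM complex and B-MYB act on genes of late cell cycle phases. They are shown because these genes moved together and because the CHR core is the motif that the cell cycle lists hold most often. A hexamer also occurs more often by its length alone than the longer E2F motifs below. The sequences run from 250 bases before to 50 bases after the start, on the strand of the gene, from RefSeq with the build GRCm38.p6 (chr5:45669675-45669974, plus strand, for Ncapg, and chr11:40733388-40733687, minus strand, for Hmmr). Capitals mark the hexamer.
Ncapg: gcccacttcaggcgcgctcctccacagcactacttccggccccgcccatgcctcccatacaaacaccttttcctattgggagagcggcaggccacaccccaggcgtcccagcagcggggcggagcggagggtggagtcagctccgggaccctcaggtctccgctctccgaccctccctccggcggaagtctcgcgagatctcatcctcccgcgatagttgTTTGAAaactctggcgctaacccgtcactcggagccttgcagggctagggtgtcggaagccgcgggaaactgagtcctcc
Hmmr: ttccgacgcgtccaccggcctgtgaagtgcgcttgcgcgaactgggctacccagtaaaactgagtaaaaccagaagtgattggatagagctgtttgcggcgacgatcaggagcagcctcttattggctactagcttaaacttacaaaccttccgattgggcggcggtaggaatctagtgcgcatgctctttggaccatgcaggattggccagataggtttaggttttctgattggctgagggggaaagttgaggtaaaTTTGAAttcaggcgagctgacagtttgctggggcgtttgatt
Of 234 promoters of 199 cell cycle genes, 30.8% held TTTGAA on either strand, against 11.8% of the promoters of all genes tested and 17.9% of all 32851 promoters in the RefSeq table. The E2F motifs GGCGGGAA and GGCGCGAA stood in 10.3% and 5.13% of the cell cycle promoters, against 3.98% and 0.915% for all genes tested. None of the 3 motifs contains another. The promoters of Ccnb1 and Brca1 in the same table held none of the 3, and Kif20a had no promoter there. A match is a run of letters and not a measured binding site.

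The 3 mitotic lists had medians of 0.10 to 0.11 in labelled exons. Over all genes tested 50.6% were above 0 in exons and 50.5% in introns, with medians of 0. The shares that rose were 0.487% in exons and 0.183% in introns. Of 37 spindle, condensin and cytokinesis genes, 36 had a change above 0 in labelled exons and all 37 in labelled introns, with medians of 0.11 and 0.12, and 3 passed the test in exons. Of 35 kinetochore and centromere genes, 28 were above 0 in exons and 31 in introns, with 0 passing upward in exons and 2 in introns. Those 2 were Ska1 and Spc25, which encode proteins of the outer kinetochore, with intron changes of 0.39 ± 0.07 and 0.40 ± 0.10 (limma adjusted p = 0.00566 and 0.0324). Ska1 introns read 664, 629 and 630.0 at 4 h and 869, 808 and 839 at 8 h, and Spc25 introns read 503, 510.4 and 549.9 at 4 h and 667, 731 and 668 at 8 h. Neither gene's libraries overlapped between the times in introns. Their exon changes were 0.32 ± 0.12 and 0.25 ± 0.11 and did not pass (limma adjusted p = 0.169 and 0.289). Among 33 genes for mitotic kinases, cyclins and checkpoint proteins, 25 were above 0 in exons with a median of 0.10, and Ccnb1 alone passed.

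The medians of replication genes ran from 0.04 to 0.08, beside 0 over all genes tested, of which 50.6% were above 0. The 35 replication fork and polymerase genes had 31 members above 0 and a median of 0.07, the 29 origin and helicase genes had 19 above 0 and a median of 0.04, and 12 genes of dNTP synthesis had a median of 0.08. No member of these 3 lists passed the test in labelled exons in either direction. With the replicate number as a block the fork gene Prim1 passed upward (limma adjusted p = 0.0471). Pcna, the sliding clamp of DNA polymerases, read 3049, 2624 and 2955 at 4 h and 3095, 3058 and 3052 at 8 h, and Mcm5, a subunit of the replicative helicase, read 2735, 2737 and 2638 at 4 h and 2981, 3014 and 2776 at 8 h. In both genes the 8 h libraries lay above the 4 h libraries, but the changes of 0.10 ± 0.07 and 0.11 ± 0.06 missed the threshold (limma adjusted p = 0.602 and 0.372). Of 35 genes for recombination and Fanconi repair, Brca1 was the 1 that passed. Replication-dependent histone genes could hardly be followed, since 3 of the 42 list members were in the tables. They were Hist1h2be, Hist1h2bc and Slbp, which is not itself a histone gene.

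In the G1 list the cyclin D1 gene went the opposite way. Ccnd1, whose product starts the phosphorylation of the RB protein together with CDK4 or CDK6 (Entrez 12443, chromosome 7 from 152115836 to 152125774), read 4560, 4464 and 4501 at 4 h and 3772, 3368 and 3675 at 8 h. All libraries at 8 h were below all at 4 h, and Ccnd1 fell by 0.32 ± 0.08 (limma adjusted p = 0.0206); lacking replicate 3 at 8 h it was -0.34, with 0.0634 as adjusted p. The span of Ccnd1 overlaps that of Oraov1. Its total RNA also fell, by 0.25 (limma adjusted p = 0.0137). The other 26 measured genes of the list did not pass. Ccnd2, the cyclin D2 gene, read 4456, 5132 and 4853 at 4 h and 4998, 4677 and 5735 at 8 h, and the libraries of both times overlapped (change 0.09 ± 0.08, limma adjusted p = 0.675). The cyclin E genes Ccne1 and Ccne2 had changes of 0.08 and -0.00, the kinase gene Cdk4 of 0.06 and E2f1, which encodes an activator of S phase genes, of -0.04, all with overlapping libraries. Ccna2, the cyclin A2 gene, read 2938, 2803 and 2962 at 4 h and 3193, 3226 and 3270 at 8 h without overlap, and its change of 0.16 ± 0.06 missed the threshold (limma adjusted p = 0.193). Cdk1 likewise had no overlap and a change of 0.11 ± 0.07 (limma adjusted p = 0.49).

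Genes that restrain the cycle gave 1 call. The shares over all genes tested were 1.56% for falls and 0.487% for rises. Of 18 measured genes for CDK inhibitors and antiproliferative proteins 1 fell, Gadd45g, which encodes a stress-induced regulator of growth arrest. It read 476, 544 and 388 at 4 h and 275, 337 and 247 at 8 h, with no overlap, and fell by 0.71 (limma adjusted p = 0.0185), while the fit lacking replicate 3 at 8 h gave -0.61 and an adjusted p of 0.154. Cdkn1a, the p21 gene, stood at low values of 12.9, 8.15 and 7.05 at 4 h and 7.94, 12.2 and 8.35 at 8 h, and Ccng2, an unconventional cyclin linked to arrest, read 80.4, 82.5 and 71.5 at 4 h and 72.4, 90.3 and 58.5 at 8 h; both overlapped between the times. Among 23 p53 target genes, Sesn1, which restrains mTORC1 signalling, rose by 0.45 from a mean of 615 to 842, and Plk2, a polo-like kinase gene, fell by 0.50 from 11015 to 7836 (limma adjusted p = 0.00429 and 0.0292). In the fit lacking replicate 3 at 8 h these p were 0.0638 and 0.209.

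**Figure D3:**
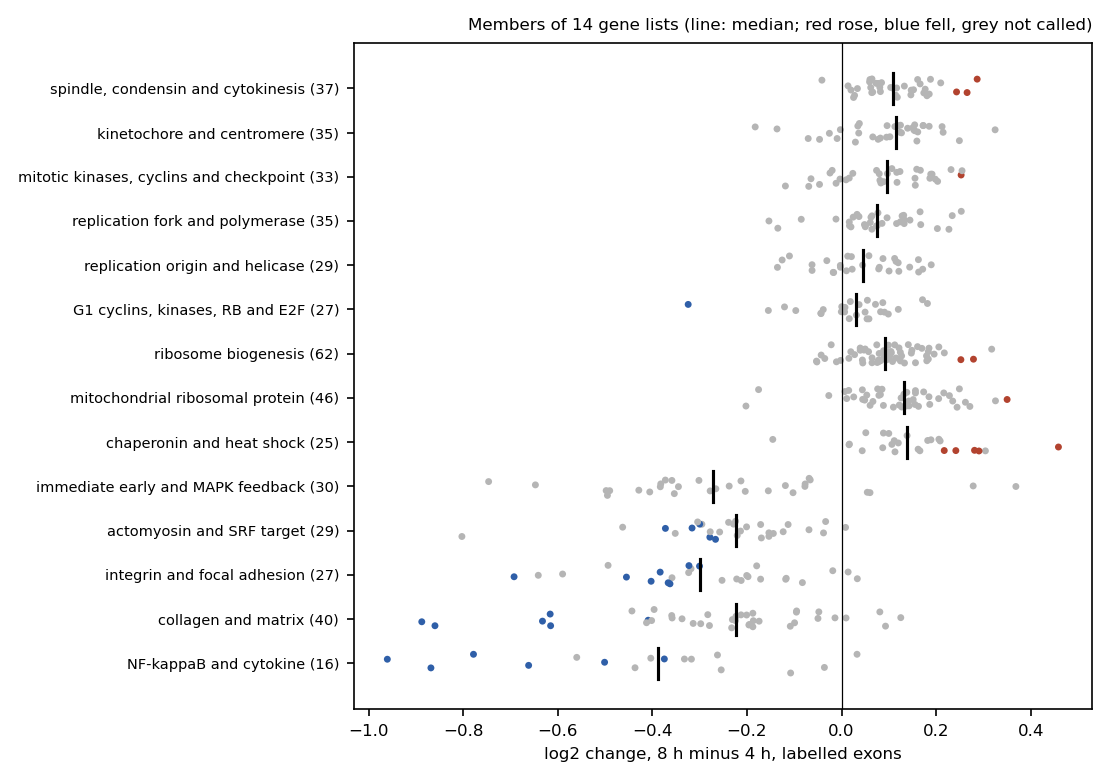
Log2 change from 4 h to 8 h in labelled exons (horizontal axis) of every measured member of 14 gene lists, with the number of members in brackets, the median as a black line and called genes in red (rose) or blue (fell). The 3 mitotic lists sit right of 0 with medians of 0.10 to 0.11, and the 4 lists at the bottom sit left of 0 with medians of -0.22 to -0.39.

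Some further rising genes act at centrosomes, cilia and chromosome cohesion; they were picked out after their values were seen. Poc5, which encodes a centriole protein, read 441, 438 and 384 at 4 h and 547, 608 and 566 at 8 h and rose by 0.45 ± 0.09 in exons (limma adjusted p = 0.00294) and by 0.36 ± 0.06 in introns. Ccp110, a centriolar protein gene, rose by 0.35 in exons and 0.37 in introns, and Esco2, which acetylates cohesin during S phase, read 632, 509 and 598 at 4 h and 762, 751 and 787 at 8 h and rose by 0.41 (limma adjusted p = 0.00521). In each of these 3 genes the libraries at 8 h were all above those at 4 h. Esco2 had an adjusted p of 0.0376, Poc5 of 0.0151 and Ccp110 of 0.154 once replicate 3 at 8 h was left out.

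The rise of the late cell cycle genes followed a low point. Ccnb1 stood at 2898 ± 102 at 0 min (mean ± SD, n = 3 at each time), 2617 ± 83.5 at 4 h, 3119 ± 129 at 8 h and 3304 ± 95.2 at 16 h. Ncapg went from 2007 ± 160.2 at 0 min to 1576 ± 96.1 at 4 h, 1921 ± 28.6 at 8 h and 2278 ± 128 at 16 h. Brca1 went from 1833 ± 41.3 to 1243 ± 61.5 at 2 h, 1281 ± 82.6 at 4 h, 1511 ± 57.1 at 8 h and 2093 ± 84.6 at 16 h. At 4 h Ccnb1, Ncapg and Brca1 thus lay below their level before OHT, and at 16 h they were above it, by 0.19, 0.18 and 0.19 on the log2 scale (limma adjusted p = 0.00435, 0.0291 and 0.0115). At 2 h against 0 min, a comparison that shares no library with 8 h and 4 h, 108 of the 246 cell cycle genes had fallen and 20 had risen (background 11.4% and 15.5% of all genes). Among the falls were 29 of the 37 spindle and 23 of the 35 kinetochore genes. At 16 h against 0 min, 65 of the 246 were higher and 36 lower (background 22.9% and 21.4%), and 12 of the 37 spindle genes were still lower.

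**Figure D4:**
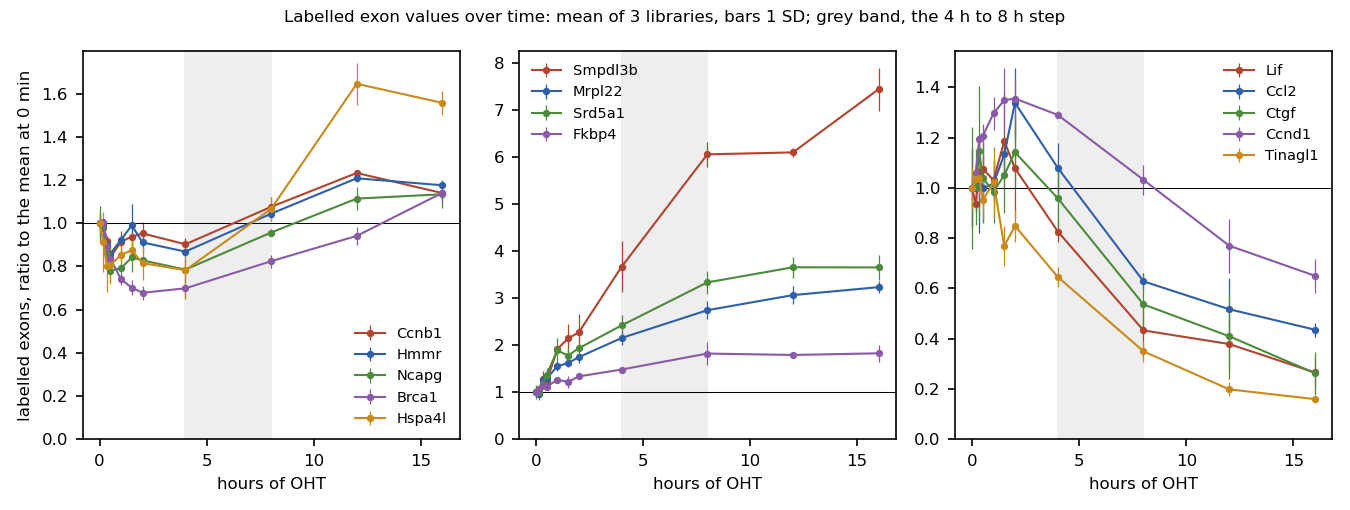
Labelled exon values over the hours of OHT (horizontal axis) as the ratio to the mean at 0 min (vertical axis, from 0), means of 3 libraries with bars of 1 SD, and the step from 4 h to 8 h in grey. The left panel shows genes that are below their starting level at 4 h and higher at 8 h, the middle panel genes that are above it throughout from 1 h on, and the right panel genes that fall from 4 h to 8 h and end below their starting level.

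Outside the cell cycle, chaperone genes gave the most rises of any list. Of 25 measured chaperonin and heat shock genes 24 had a change above 0, with a median of 0.14, and 5 rose: Hspa4l, Hsph1, Fkbp4, Ahsa1 and Stip1. Over all genes tested 50.6% were above 0 and 0.487% rose. Hspa4l and Hsph1 encode nucleotide exchange factors of the HSP110 family, and Fkbp4, Ahsa1 and Stip1 encode co-chaperones of HSP90. Hspa4l (Entrez 18415, chromosome 3 from 40548417 to 40600025) read 3273, 2357 and 2628 at 4 h and 3973, 3658 and 3621 at 8 h, and its change was 0.46 ± 0.10 in exons (limma adjusted p = 0.0106) and 0.46 ± 0.11 in introns (limma adjusted p = 0.0321). The libraries at 8 h were all above those at 4 h. The other 4 rose by 0.22 to 0.29, and of the 5 only Hspa4l passed without replicate 3 at 8 h (limma adjusted p = 0.0354). Hspa4l then reached 5790 ± 341 at 12 h, above 3516 ± 105 at 0 min.

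Genes of growth that Myc is known to raise had positive medians in labelled exons but few calls in this step. Of 62 ribosome biogenesis genes 55 were above 0, with a median of 0.09, and Ebna1bp2 and Emg1 rose, by 0.25 and 0.28. Of 46 mitochondrial ribosomal protein genes 43 were above 0, with a median of 0.13, and Mrpl22 rose by 0.35, reading 925, 825 and 948 at 4 h and 1066, 1150 and 1224 at 8 h. Outside the lists, the mitochondrial ribosomal protein gene Mrpl47 and the ribosome biogenesis gene Bms1 also rose. Neither passed without replicate 3 at 8 h (limma adjusted p = 0.0739 and 0.264), and the span of Mrpl47 overlaps those of Actl6a and Ndufb5. In labelled introns 37 of the 62 ribosome biogenesis genes were above 0, with a median of 0.02. For the mitochondrial ribosome 29 of the 46 were, with a median of 0.04. Over all genes tested 50.5% were above 0 in introns and 50.6% in exons. Of 35 genes for RNA polymerases I and III, Polr1d rose by 0.27. Leaving out replicate 3 at 8 h took the adjusted p of Ebna1bp2, Emg1, Mrpl22 and Polr1d to 0.249, 0.172, 0.112 and 0.266, while the list medians were 0.10 for ribosome biogenesis and 0.12 for the mitochondrial ribosome. Lists for purine and pyrimidine synthesis, amino acid transport, sterol synthesis, cytosolic tRNA synthetases, the ATF4 response, the circadian clock, the lysosome and the Myc network gave 0 calls in labelled exons, and glycolysis gave 1, Pfkm, which rose by 0.34 but did not pass without replicate 3 at 8 h (limma adjusted p = 0.325).

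By the naming rule the largest rise was that of Smpdl3b, which encodes a sphingomyelin phosphodiesterase-like membrane protein (Entrez 100340, chromosome 4 from 132288881 to 132313167). Its labelled exons read 256, 343 and 295 at 4 h and 511, 469 and 498 at 8 h. Every library at 8 h was above those at 4 h, and the change was 0.73 ± 0.13 (limma adjusted p = 0.00178; 0.0149 without replicate 3 at 8 h). Smpdl3b had climbed from 81.4 ± 11.1 at 0 min and reached 605 ± 37.3 at 16 h. Abcg2, a drug and urate efflux pump gene, read 61.5, 59.1 and 73.5 at 4 h and 113, 91.3 and 109 at 8 h, and Dync2li1, a light intermediate chain gene of the ciliary dynein motor, read 87.3, 73.4 and 74.5 at 4 h and 116, 127 and 132 at 8 h. They rose by 0.69 and 0.67 without overlap. Chchd6, a mitochondrial cristae gene, Adat2, a tRNA deaminase gene, Nudt19, a coenzyme A hydrolase gene, and Srd5a1, the steroid 5-alpha-reductase gene, rose by 0.53, 0.50, 0.48 and 0.46. Efcab7, Purg, Ica1 and Ccdc53 completed the largest 12, with rises of 0.45 to 0.48. Apart from Smpdl3b and Hspa4l, none of these 12 passed without replicate 3 at 8 h.

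The genes that fell included many of inflammatory and secreted signalling. Of 16 measured NF-kappaB and cytokine genes 15 had a change below 0, with a median of -0.39, and 6 fell: Lif, Ccl7, Ccl2, Tnfaip3, Nfkbia and Csf1. The share that fell among all genes tested was 1.56%. Lif encodes leukaemia inhibitory factor, a cytokine of the IL-6 family (Entrez 16878, chromosome 11 from 4157560 to 4172517). It read 831, 782 and 866 at 4 h and 477, 504 and 316 at 8 h, and it fell by 0.96 ± 0.16 (limma adjusted p = 0.000844; 0.0215 without replicate 3 at 8 h, its lowest library). Ccl2, the gene of the monocyte attractant MCP-1 (Entrez 20296, chromosome 11 from 81849073 to 81850955), read 959, 804 and 849 at 4 h and 536, 499 and 484 at 8 h and fell by 0.78 (limma adjusted p = 0.000721). In both genes the lowest library at 4 h was well above the highest at 8 h.

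Ccl7, a chemokine gene that lies beside Ccl2 at 81859214 to 81861027 on chromosome 11, read 107, 126 and 116 at 4 h and 43.7, 74 and 77.9 at 8 h and fell by 0.87 (limma adjusted p = 0.00957). Nfkbia and Tnfaip3 encode inhibitors of NF-kappaB that are themselves induced by it, and they read 760.0, 760.3 and 750.0 at 4 h and 532, 634 and 453 at 8 h for Nfkbia and 1365, 1347 and 995 at 4 h and 887, 947 and 549 at 8 h for Tnfaip3. Both had no overlap, with changes of -0.50 ± 0.13 and -0.66 ± 0.18 (limma adjusted p = 0.0282 and 0.041), and Nfkbie, another inhibitor gene outside the list, fell by 0.85 (limma adjusted p = 0.00215). Without replicate 3 at 8 h 3 members passed (Lif, Ccl2 and Ccl7), the list median was -0.25, and the adjusted p of Nfkbia and Tnfaip3 were 0.249 and 0.38. The list gave 3 falls without replicate 1 at 4 h, 2 without replicate 2 at 4 h and 3 without replicate 1 at 8 h. Traf1 and Birc3, named after their values were seen, encode signalling partners of the TNF receptors and fell by 0.62 and 0.60, though neither passed without replicate 3 at 8 h (limma adjusted p = 0.269 and 0.0739). Relb passed in introns, where it fell by 0.55, and not in exons (-0.33). Irf1, an interferon-induced transcription factor gene, fell by 0.47, the 1 call among 8 interferon response genes.

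Nfkbia carries in its promoter the 9-base motif GGGANTTTC, a form of the site that NF-kappaB binds, on both strands. The promoter is shown, with the motif in capitals, since 6 list members fell and Nfkbia is a textbook NF-kappaB target (RefSeq, GRCm38.p6, chr12:55492598-55492897, minus strand, 250 bases before to 50 after the start).
Nfkbia: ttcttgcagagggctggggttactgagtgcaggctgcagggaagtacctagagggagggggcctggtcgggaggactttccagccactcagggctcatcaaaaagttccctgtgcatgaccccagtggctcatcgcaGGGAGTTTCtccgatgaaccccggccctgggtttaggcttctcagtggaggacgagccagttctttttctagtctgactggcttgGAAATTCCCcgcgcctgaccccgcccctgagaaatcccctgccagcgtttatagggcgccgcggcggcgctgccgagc
The motif stood in 3 of 10 promoters of 9 list genes, or 30%, against 0.847% of the promoters of all genes tested and 1.11% of all promoters. Over the genes that fell it stood in 2.91% of 206 promoters and over those that rose in none of 57. The promoter of Lif and both promoters of Tnfaip3 held no match. The list was drawn up around NF-kappaB genes, so the 30% says nothing of the fall of its members. This motif and the TEAD motif below were chosen after the values were seen.

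Genes of the cell's attachment to its surroundings gave the most falls. Of 96 measured genes in the actomyosin, integrin and matrix lists, 19 fell and 0 rose, 89 had a change below 0, and the median was -0.23. All 3 libraries at 8 h lay below all 3 at 4 h in 46 of the 96 and above them in none. Over all genes tested 1.56% fell, 8.86% had all 3 libraries at 8 h below those at 4 h and 8.28% had them above. Without replicate 3 at 8 h 4 of the 96 passed downward, the median was the same -0.23 and 90 were below 0, and with the replicate number as a block 30 fell. Leaving out replicate 1 or 2 at 4 h left 6 and 9 falls.

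Integrins and focal adhesion proteins anchor actin bundles to the matrix, and 8 of 27 of their genes fell: Fblim1, Itga5, Bcar1, Itga3, Pdlim7, Pdlim5, Tns3 and Itgb5, by 0.30 to 0.69. Itga3, an integrin subunit for laminin (Entrez 16400, chromosome 11 from 94905788 to 94938115), read 2619, 2611 and 2433 at 4 h and 2037, 1949 and 1887 at 8 h. The values within a time differed by less than the gap between the times, and Itga3 fell by 0.38 (limma adjusted p = 0.00137; 0.0159 without replicate 3 at 8 h). Itga5, the fibronectin receptor subunit, read 4877, 3888 and 3965 at 4 h and 3434, 3065 and 2774 at 8 h and fell by 0.45 (limma adjusted p = 0.0112; 0.116 without replicate 3 at 8 h). Itga2, another integrin gene, had the largest intron fall under the naming rule, with intron values of 407, 232 and 258 at 4 h and 144, 136 and 106 at 8 h. Those did not overlap (change -1.18 ± 0.21, limma adjusted p = 0.00515), while its exon values of 54.6, 32.6 and 45.3 at 4 h and 30.8, 39.6 and 16.7 at 8 h did.

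Of 29 actomyosin and SRF target genes 5 fell. They were Vcl (vinculin), Myh9 (a non-muscle myosin heavy chain), Flna (filamin A), Actg1 (a cytoplasmic actin) and Smtn (smoothelin), by 0.27 to 0.37. Vcl read 12761, 13037 and 11970 at 4 h and 10864, 9995 and 9829 at 8 h, without overlap, and fell by 0.30 (limma adjusted p = 0.0113; 0.0852 without replicate 3 at 8 h). Myh9 passed in introns as well, where it fell by 0.44 (limma adjusted p = 0.0293). Actn1, Tpm1 and Flnc passed in introns and not in labelled exons.

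Of 40 collagen and matrix genes 6 fell: Tinagl1, Ctgf, Thbs1, Cyr61, Col18a1 and Col5a1. Tinagl1 encodes a secreted laminin-binding protein (Entrez 94242, chromosome 4 from 129841698 to 129852366). It read 513, 452 and 488 at 4 h and 260.0, 294 and 233 at 8 h, with no library near the range of the other time, and fell by 0.89 (limma adjusted p = 4.96e-06; 0.000219 without replicate 3 at 8 h). Ctgf and Cyr61 encode matricellular proteins of the CCN family that are standard targets of YAP and TEAD. Ctgf (Entrez 14219, chromosome 10 from 24315248 to 24318489) read 10765, 10116 and 8478 at 4 h and 6637, 5694 and 4088 at 8 h, and Cyr61 (Entrez 16007, chromosome 3 from 145309935 to 145312949) read 8930, 13020 and 8623 at 4 h and 6496, 8337 and 5142 at 8 h. Replicate 3 at 8 h was the lowest library in both genes, and its counterpart at 4 h was the lowest there. Their changes were -0.86 ± 0.23 and -0.62 ± 0.17 (limma adjusted p = 0.0378 and 0.0461), or -0.66 and -0.44 with adjusted p of 0.27 and 0.347 without it. Thbs1, the thrombospondin 1 gene, read 24469, 26218 and 22320 at 4 h and 16098, 18315 and 13043 at 8 h and fell by 0.63, and Col5a1, a fibril-forming collagen gene, read 5581, 5629 and 6072 at 4 h and 4437, 4154 and 4422 at 8 h and fell by 0.41 (limma adjusted p = 0.00356 and 0.00166). These falls stood beside a lower sum of the 10 fibroblast markers at 8 h, given above. In these bulk samples fewer cells of a type and less RNA per cell cannot be told apart.

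Cyr61 holds GGAATG, the core of the TEAD binding site, in its promoter (RefSeq, GRCm38.p6, chr3:145649936-145650235, minus strand). It is shown because this gene was among the falling matrix genes and is a textbook TEAD target, with the motif, read on the opposite strand, in capitals.
Cyr61: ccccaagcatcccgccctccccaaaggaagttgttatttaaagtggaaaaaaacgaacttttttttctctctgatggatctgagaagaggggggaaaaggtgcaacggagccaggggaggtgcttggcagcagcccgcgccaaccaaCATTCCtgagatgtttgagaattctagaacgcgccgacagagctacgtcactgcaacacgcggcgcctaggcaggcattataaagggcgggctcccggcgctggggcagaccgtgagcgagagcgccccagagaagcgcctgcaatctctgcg
The hexamer stood in 16.5% of 206 promoters of 143 genes that fell and in 5.26% of 57 promoters of 47 genes that rose, against 12.1% of the promoters of all genes tested. The E-box CACGTG stood in 12.3% of the promoters of genes that rose and 9.71% of those that fell, against 10.1% for all genes tested and 7.15% of all promoters. The CHR core TTTGAA stood in 17.5% and 5.34%.

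A few single genes of growth factor and TGF-beta signalling are given next; they were picked after their values were seen, from no list, so they say nothing of those pathways as a whole. Tgfbr2 (Entrez 21813, chromosome 9 from 115993415 to 116084383) read 1807, 1823 and 2018 at 4 h and 1388, 1232 and 1273 at 8 h, a change of -0.54 ± 0.06 (limma adjusted p = 3.64e-06), with an intron change of -0.48 ± 0.06. Smad3 (Entrez 17127, chromosome 9 from 63494574 to 63605801) read 1052, 1014 and 1026 at 4 h and 762, 731 and 697 at 8 h and fell by 0.50 (limma adjusted p = 4.96e-06). Both had tight replicates and no overlap, and both passed without replicate 3 at 8 h (limma adjusted p = 0.000117 and 0.000219). Pdgfb, a platelet-derived growth factor gene, fell by 0.78, and the receptor genes Egfr and Met fell by 0.29 and 0.30. Plau and Plat, the genes of the urokinase and tissue-type plasminogen activators, fell by 0.59 and 0.72. Without replicate 3 at 8 h the calls of Egfr and Plau ended (limma adjusted p = 0.0511 and 0.0889, with a change of -0.40 for Plau), while Pdgfb, Met and Plat passed.

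The largest falls under the naming rule were of Gjb2 and Sema7a. Gjb2 encodes connexin 26, a gap junction channel protein (Entrez 14619, chromosome 14 from 57717437 to 57723539). It read 47.6, 53 and 71.5 at 4 h and 24.8, 19.3 and 20.4 at 8 h, at low values but without overlap, and fell by 1.36 (limma adjusted p = 0.012; 0.062 without replicate 3 at 8 h). Its introns read 21.3, 17.3 and 13.8 at 4 h and 4.09, 0.97 and 4.34 at 8 h, near 0 at 8 h. Sema7a, a membrane-anchored semaphorin gene (Entrez 20361, chromosome 9 from 57787920 to 57810671), read 183, 136 and 180.2 at 4 h and 117, 76.1 and 39 at 8 h. Replicate 3 at 8 h was much lower than the other 2, and the change was -1.21 ± 0.24 (limma adjusted p = 0.00402), or -0.80 with an adjusted p of 0.0746 without that library. Maged2, Pld1, Pdlim2, Kcnk2 and Svopl completed the largest 12, with falls of 0.80 to 1.06.

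A few genes were called in labelled exons alone, which is no test of a difference from the other kinds of RNA. The exon to intron ratio passed for none of them. It changed by -1.04 for Svopl and by -1.77 for Perm1 (limma adjusted p = 0.342 for both). Svopl, a transporter-like gene, read 65.5, 76.4 and 74.5 at 4 h and 22.8, 57.8 and 29.7 at 8 h in labelled exons, a change of -1.06 ± 0.24 (limma adjusted p = 0.0113; 0.0801 without replicate 3 at 8 h). Its introns read 265, 294 and 299 at 4 h and 298, 319 and 248 at 8 h, and its total RNA had a change of -0.12, and neither passed the test. Perm1, a regulator of muscle metabolism seen here at low values, read 35.7, 37.7 and 24.2 at 4 h and 8.93, 10.1 and 8.35 at 8 h and fell by 1.70 (limma adjusted p = 0.000539), with a total RNA change of -0.14. Cpa6 and 4930486L24Rik fell likewise, with changes of -1.91 and -1.66 in labelled exons and total RNA changes of -0.16 and -0.19. Perm1, Cpa6 and 4930486L24Rik were singled out after their values were seen.

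Myc itself was lower at 8 h without passing the test in the fit without pairing. Its labelled exons read 3326, 2924 and 2706 at 4 h and 2639, 2115 and 1634 at 8 h, and no library at 8 h reached the lowest at 4 h. The change was -0.51 ± 0.16 (limma adjusted p = 0.103), and with the replicate number as a block the adjusted p was 0.0398. Leaving out replicate 3 at 8 h gave a change of -0.33 for Myc and an adjusted p of 0.54. How far reads from the MycER transcript enter these values was not tested. Genes of the immediate early and MAPK feedback list, which serum and growth factors induce within minutes, were below 0 in 26 of 30, with a median of -0.27, and 0 passed. That median was -0.11 without replicate 3 at 8 h. Of all genes tested 50.6% were above 0. Fosl2, Arc, Junb, Klf6 and Dusp1 came closest, with changes of -0.28, -0.41, -0.50, -0.38 and -0.49 (limma adjusted p from 0.108 to 0.217); with the replicate block Fosl2 alone of them passed (0.0457). Lacking replicate 3 at 8 h, the changes of Arc, Klf6 and Dusp1 were -0.27, -0.24 and -0.21 (limma adjusted p = 0.544, 0.596 and 0.784).

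Intron values had the same direction as exon values in nearly all genes called in exons. Of 11506 genes tested in labelled introns, 123 fell (1.07%) and 21 rose (0.183%), or 63 and 8 without replicate 3 at 8 h. Falls numbered 45 and 66 without replicates 1 and 2 at 4 h and 65 without replicate 2 at 8 h, and rises 7 without replicate 2 at 4 h. The split moved with the scaling, to 71 falls and 37 rises with scaling by library sums and to 238 falls and 11 rises without further scaling. Introns thus gave fewer calls than exons in the fit reported, but more than exons without further scaling (27 rises and 62 falls in exons) and from RPKM values (6 rises and 130 falls in introns, 34 and 46 in exons). Of the 179 genes that fell in exons 53 also fell in introns, which is 29.6% of the exon list and 43.1% of the intron list, and 175 had an intron change below 0. Of the 56 that rose in exons 5 also rose in introns (Hspa4l, Poc5, Ccp110, Pax9 and Hmmr), or 8.93% of the exon list and 23.8% of the intron list, and 53 had an intron change above 0. The median intron change was -0.34 for the exon falls and 0.13 for the exon rises, but the exon values chose both sets and their own medians are no comparison for it. Exon to intron ratios, tested within each library for 11481 genes, gave 0 calls (0%), with 773 genes at an unadjusted p under 0.05 and a smallest limma adjusted p of 0.342.

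Some genes were named by their intron changes, and of these Col18a1 was also named through the matrix list. Dlg2, a synaptic scaffold gene with long introns, read 89.4, 82.5 and 103 at 4 h and 137, 147 and 169 at 8 h in introns and rose by 0.72 (limma adjusted p = 0.00949), while its exons stayed under 10 in each of the 6 libraries. Sord, the sorbitol dehydrogenase gene, read 700.1, 652 and 779 at 4 h and 972, 1019 and 1158 at 8 h in introns and rose by 0.56, with an exon change of 0.34 that did not pass. Col18a1, a basement membrane collagen gene, fell by 0.96 in introns and 0.62 in exons, and Ulbp1 and Ass1 fell by 0.97 and 0.80 in introns without an exon call. BC006965 rose by 1.05 on low intron values of 35.6, 32.6 and 23.7 at 4 h and 54.2, 43.8 and 108 at 8 h, where replicate 3 at 8 h was the highest by far. Hmgcll1, Tmem218 and Macrod2 rose by 0.64, 0.63 and 0.56.

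Total RNA, normalized apart from labelled RNA, had the same direction in nearly all genes called in labelled exons. Of 11486 genes tested in total exons, 585 fell (5.09%) and 560 rose (4.88%), or 243 and 184 without replicate 3 of total RNA at 8 h, and 922 and 829 with the replicate block. Rises numbered 263 without replicate 2 of total RNA at 4 h. Without further scaling 327 fell and 1022 rose, and from RPKM values 302 fell and 1044 rose. Of the 179 genes that fell in labelled exons 123 (68.7%) also fell in total exons, and 178 had a total change below 0; the 123 are 21.0% of the falls in total RNA. Of the 56 that rose 36 (64.3%) also rose in total exons and 55 had a change above 0, the exception being Purg; the 36 are 6.43% of the rises in total RNA. The median total change was -0.39 for the labelled falls and 0.25 for the labelled rises.

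**Figure D5:**
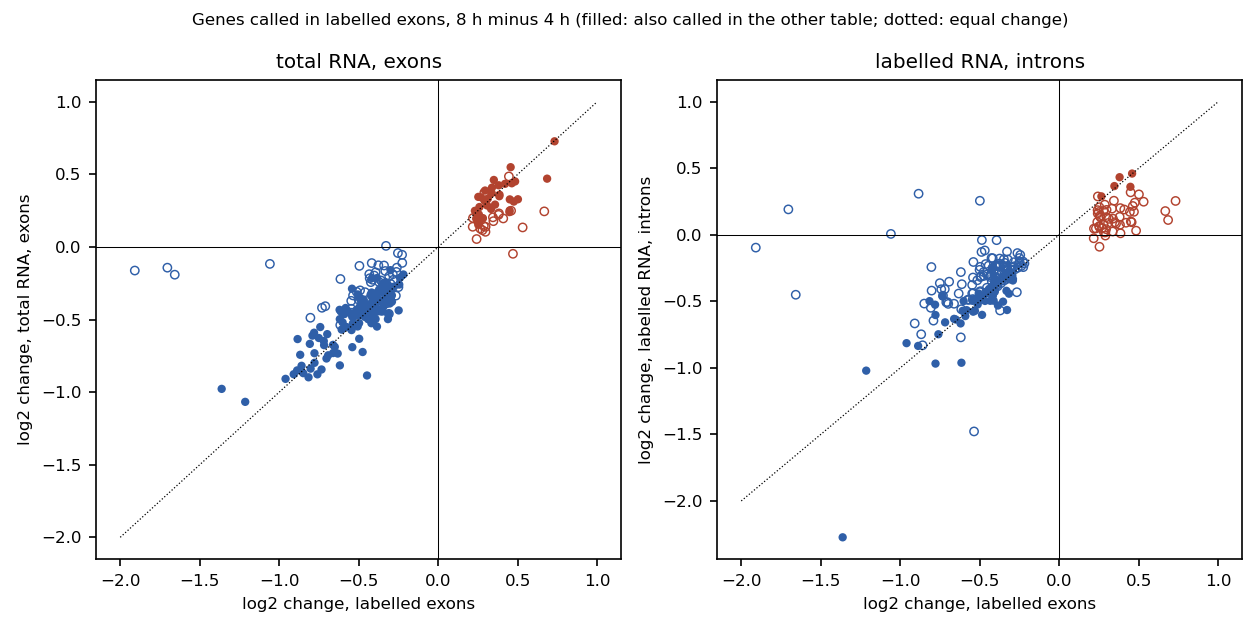
Log2 change from 4 h to 8 h of the 235 genes called in labelled exons (horizontal axes) against their change in total RNA exons (left, vertical axis) and in labelled introns (right, vertical axis), filled where also called there, with equal change dotted. Points lie near the dotted line in total RNA, except for 4 genes at the far left with changes near 0, and most rising genes (red) lie below it in introns.

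More cell cycle genes passed in total RNA, 31 upward and 3 downward of 246, beside 4.88% and 5.09% of all genes tested. Among them were the replication genes Mcm5, Cdc45, Orc6, Fen1, Pold2 and Rfc5, and the mitotic kinase genes Aurka and Aurkb. Mcm5 total exons read 16072, 14992 and 16298 at 4 h and 18193, 17580 and 17901 at 8 h, all higher at 8 h, with a change of 0.18 ± 0.04 (limma adjusted p = 0.00292). Cdk1 and Ccna2 rose there by 0.17 and 0.16, and Ccne1 by 0.21 (limma adjusted p = 0.0267, 0.0248 and 0.0114). Ccnb2, the cyclin B2 gene, and Rb1, the RB gene, fell by 0.27 and 0.27. Of the mitochondrial ribosomal protein genes 16 of 46 rose in total RNA, and of the ribosome biogenesis genes 16 of 62, led by Rrp9 at 0.38. In the 3 attachment lists 28 of 96 fell. The largest changes of total exons under the naming rule were rises of 0.68 to 0.94 in Syngr1, Arrdc4, Arhgdig, Smpdl3b and Smoc1 and falls of 0.96 to 1.19 in Gvin1, Sema7a, Cpeb2, Gjb2 and Gpr153.

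The state at 16 h against 0 min, measured in libraries apart from those at 4 h and 8 h, had the sign of the step in nearly all called genes. Of the 179 genes that fell from 4 h to 8 h, 175 (97.8%) were called lower at 16 h than at 0 min and 0 higher, beside 21.4% and 22.9% of all genes, with a median of -1.05. Of the 56 that rose, 51 (91.1%) were called higher and 0 lower, with a median of 0.62. At 2 h against 0 min, 41 of the 179 (22.9%) were lower and 15 (8.38%) higher, and 24 of the 56 (42.9%) were higher and 7 (12.5%) lower, beside 11.4% of all genes lower and 15.5% higher. Lif went from 1000 ± 158 at 0 min to 1078 ± 197 at 2 h, 433 ± 101 at 8 h and 265 ± 56.9 at 16 h. Tinagl1 went from 751 ± 63.7 to 637 ± 46.9, 262 ± 30.7 and 119 ± 10.2 at the same times. Neither passed the test at 2 h against 0 min, and both were lower at 16 h than at 8 h and at 0 min. Ccnd1 was at 3494 ± 174 at 0 min, 4508 ± 48.4 at 4 h, 3605 ± 211 at 8 h and 2271 ± 237 at 16 h, a rise and then a fall past the start.

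The called genes differed in size and surroundings without a test being made of it. The median gene span in GENCODE M1 (mm9) was 39.7 kb for the 172 falling genes with a span, 21.6 kb for 54 rising genes and 25.5 kb over the 10520 genes tested that had one. In 9 places a pair of genes next to each other among the measured genes fell together, and no such pair rose. Among them, besides Ccl2 with Ccl7, were Klhdc8a with Nuak2, Col18a1 with Pofut2, Polm with Aebp1, Bahcc1 with Actg1, Plau with Vcl, Efemp2 with Mus81 and Cav1 with Met. Efemp2 and Mus81 lie 491 bases apart. No background for neighbouring pairs is given, and fewer genes rose than fell, so the lack of a rising pair is no contrast between the directions. Spans of 15 of the 172 falling and 11 of the 54 rising genes overlap another measured gene, and their values are less certain because the use of strand in counting is not given in the sources used here.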

How the data were processed

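Labelled and total RNA of the MycER fibroblasts had been sequenced, and exon and intron tables were used for labelled RNA and the exon table for total RNA. Reads were aligned with TopHat2 (2.0.8) to mm9, per the submitters' processing notes, while the tool and annotation behind the counting, and its use of strand, are not named there. The whole-number values that the authors deposited per gene behave as a score and not as raw counts. They were set against the RPKM values that the authors deposited beside them. Among higher values, the median ratio of the 2, relative to each gene's own, deviated by at most 0.0011% in any library. Depth had thus been scaled out, and no count model was used. Low values were not checked in this way.

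Each library was scaled by a trimmed mean of log ratios (30% and 5% trims), and a gene entered the fit if 3 or more of a table's 33 libraries reached 10. Values were fitted as log2(value + 1) with limma (3.58.1, R 4.3.3), with 1 mean per time over all 33 libraries, a variance trend and Benjamini-Hochberg adjustment over all genes tested, two-sided, at 0.05. Fold changes are on that scale and understate those of low genes. The exon to intron ratio had a pseudocount of 2. The scripts were tested on simulated data. Samples were grouped by the time and RNA kind in their labels. Same-numbered replicates deviated together from their group means (r = 0.412, 0.342 and 0.34 in labelled exons for replicates 1, 2 and 3, and at least 0.46 in the other tables), so the numbers were taken from the data to pair the libraries. The fit with the number as a block is given for some of the calls and counts that it moved. Other alternatives were scaling by library sums, no further scaling, a pseudocount of 5, no filter, the 6 libraries alone, log2(RPKM + 0.1) and leaving out each library. The RPKM fit had no further scaling either. It is thus close to the fit without further scaling, with another pseudocount, and is no independent alternative to it.

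Named genes were the 12 largest called rises and falls in labelled exons, 8 in introns and 5 in total exons, with the higher group's mean reaching 50, libraries that did not overlap and no provisional symbol; the 5 members of each list with the smallest p; and 14 genes of the cell cycle and Myc. The 36 lists, this rule and the comparison were chosen with earlier results of these data known. Gene positions are from GENCODE M1 (mm9) and promoters from the RefSeq table of GRCm38.p6, which held 47 of the 56 rising and 143 of the 179 falling genes.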

Additional observations from a re-analysis of the deposited data

How the results depend on the processing

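All 235 genes called in labelled exons had the same sign under the 13 alternatives. The counts moved more; beside each, the cause was not tested unless fewer libraries entered the fit. With the 6 libraries at 4 h and 8 h alone, labelled exons gave 9 rises and 60 falls, introns 0 and 8, total exons 149 and 226, cell cycle rises were 0, falls of attachment genes (actomyosin, adhesion and matrix) 8 and of NF-kappaB genes 3. Without further scaling, labelled exons gave 27 rises and 62 falls, introns 11 and 238, total exons 1022 and 327, cell cycle genes 3 rises and 0 falls, attachment falls 5 and NF-kappaB falls 3. From RPKM values, which also had no further scaling, labelled exons gave 34 rises and 46 falls. Introns gave 6 rises, total exons 1044 and 302, cell cycle genes 3 and 0, attachment falls were 5 and NF-kappaB falls 3. Scaling by library sums gave 37 intron rises and 71 intron falls. With the replicate block labelled exon rises were 89, total exon falls 922 and attachment falls 30; it ended no call of a named gene, added 8, and moved no other count by over 1.5 times. Leaving out each library gave 5 to 51 labelled exon rises and 69 to 148 falls, 7 to 18 intron rises and 45 to 105 falls, 184 to 543 total exon rises and 243 to 538 falls, 0 to 5 cell cycle rises and 0 to 1 falls, 4 to 18 attachment falls and 2 to 7 NF-kappaB falls. Replicate 3 at 8 h gave the lowest count in labelled exons in both directions and in total exons. The exon to intron ratio gave 0 calls under each alternative run for it. Without further scaling the median change of all genes was 0.044 in exons and -0.053 in introns, against 0.003 and 0.001 as reported. True depth is unknown, so no interval or floor was set on low values.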
